A study of Mus musculus with 9 samples.

Results

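The miR-181 family was examined in small RNA libraries from the hippocampus of adult male C57BL/6J mice. Its members were taken by name, and 6 of the 1448 mature miRNAs counted belong to it here: the 5p strands mmu-miR-181a-5p, mmu-miR-181b-5p, mmu-miR-181c-5p and mmu-miR-181d-5p, and the 3p strands mmu-miR-181a-1-3p and mmu-miR-181c-3p (mmu, the prefix for mouse, is left out from here on). All 6 passed a minimum of 10 reads in at least 3 of the 9 libraries, as did 628 miRNAs in all. There were 3 libraries in each of 3 groups. The saline group received 0.9% saline. The LPS group received a single intraperitoneal dose of 1 mg/kg lipopolysaccharide (LPS), a bacterial endotoxin that provokes inflammation, and its labels also name 0.12% saline. The LPS + GAS group received the same dose of LPS and then 100 mg/kg gastrodin (GAS), a phenolic glucoside from an orchid used in Chinese medicine, 1 h after LPS by its labels, while the study's methods also describe gastrodin given together with LPS. The labels give no time of tissue collection and do not say that each library came from a separate mouse, so p-values measure the spread between these libraries. The deposited read counts are not normalized and sum to 10119758 to 11457656 reads per library. Levels are given as CPM, read counts scaled to a common library size after edgeR's TMM normalization, whose factors ran from 0.914 to 1.19.

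MicroRNAs guide Argonaute proteins to messenger RNAs, and the bases at positions 2 to 8 of the guide, the seed, decide most of the pairing. A hairpin precursor is cut into a 5p and a 3p strand, of which one is usually kept as the guide and the other degraded. The miR-181 family is abundant in the thymus, where miR-181a sets the sensitivity of developing T cells to antigen, and in the brain, where it is made by neurons and glia and has been studied in inflammation and ischaemic injury.

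The mature sequences are shown because the 4 guide strands share a single seed and differ only outside it. They were copied from the deposited table, are written 5′ to 3′ with the seed in capitals, and were identical to the RefSeq entries of GRCm38.p6.
miR-181a-5p: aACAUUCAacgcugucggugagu
miR-181b-5p: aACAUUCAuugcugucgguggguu
miR-181c-5p: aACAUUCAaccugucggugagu
miR-181d-5p: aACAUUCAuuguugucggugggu
miR-181a-1-3p: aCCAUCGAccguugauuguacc
miR-181c-3p: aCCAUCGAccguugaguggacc
miR-181a-2-3p: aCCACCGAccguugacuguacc
The seed of the 5p strands occurred in 4 of the 1448 mature sequences, which were these 4. Counted from the 5′ end, miR-181a-5p and miR-181b-5p differ by A9U, C10U and A21G, with an additional base at the 3′ end of miR-181b-5p. MiR-181b-5p and miR-181d-5p differ by C12U over their shared length. MiR-181c-5p is miR-181a-5p without the base at position 11. The members miR-181a-1-3p and miR-181c-3p share their own seed, found in 2 of the 1448 sequences, and differ by U16G and U19G. MiR-181a-2-3p, which is not a member, differs from miR-181a-1-3p by U5C, within the seed, and by U16C.

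The 4 guide strands come from 6 precursors in 3 clusters. On chromosome 1 of GRCm38.p6, Mir181a-1 (chr1:137966455-137966541) and Mir181b-1 (chr1:137966639-137966718) lie on the plus strand, with 182 bases from the start of one 5p strand to that of the next. GENCODE release M21 places both in an intron of the non-coding transcript Gm4258, and both overlap an exon of the lincRNA A430106G13Rik. On chromosome 2, Mir181a-2 (chr2:38852735-38852810) and Mir181b-2 (chr2:38853830-38853918) are 1104 bases apart by the same measure, on the plus strand, opposite to an intron of Nr6a1, a nuclear receptor gene. On chromosome 8, the strands of Mir181c (chr8:84178885-84178945) and the precursor Mir181d (chr8:84178716-84178787) are transcribed from the minus strand, 164 bases apart, inside an intron of Nanos3, a gene of the germ line on the same strand. MiR-181a-5p and miR-181b-5p are each made from both the chromosome 1 and the chromosome 2 cluster with the same sequence, so reads of these strands cannot be assigned to either locus. Reads of miR-181a-1-3p and miR-181a-2-3p can.

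In these hippocampi the family was mostly miR-181a-5p. This strand ranked 7th of 1448 miRNAs by mean level, with 41215 ± 7820 CPM after saline (mean ± SD, n = 3), 36811 ± 2210 CPM after LPS and 37017 ± 9270 CPM after LPS + GAS. By library, it had 40375, 49418 and 33850 CPM in saline replicates 1, 2 and 3, then 36380, 34853 and 39200 CPM with LPS, and 39478, 44809 and 26763 CPM with LPS + GAS. The highest library was a saline library and the lowest an LPS + GAS library, and the 3 LPS libraries lay between them. The 4 guide strands together took 4.64 ± 1.24% of all miRNA reads after saline, 4.36 ± 0.297% after LPS and 4.18 ± 0.925% after LPS + GAS. MiR-181a-5p made up 84.3% to 89.0% of these reads in the 9 libraries.

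MiR-181c-5p and miR-181b-5p followed, ranked 46th and 54th. MiR-181c-5p had 2685, 3183 and 3096 CPM in saline replicates 1, 2 and 3, then 2792, 2320 and 2998 CPM after LPS, and 2525, 2961 and 2921 CPM after LPS + GAS. These give 2988 ± 266, 2704 ± 348 and 2802 ± 241 CPM, and the groups overlap, with the lowest value in LPS replicate 2. MiR-181b-5p had 2660, 2659 and 1863 CPM in the saline libraries, 2441, 1829 and 2192 CPM with LPS, and 2525, 2643 and 1749 CPM with LPS + GAS. Replicate 3 of both the saline and the LPS + GAS group and replicate 2 of the LPS group were low, and the other 6 libraries lay at 2192 CPM or above. The group means were 2394, 2154 and 2306 CPM, with coefficients of variation of 19.2%, 14.3% and 21.1%.

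MiR-181d-5p, which shares its cluster with miR-181c-5p, was far less abundant than its partner. Saline replicates 1, 2 and 3 held 315.1, 284.4 and 315.1 CPM, those of the LPS group 372, 244 and 313.3 CPM, and those of the LPS + GAS group 304.8, 384.6 and 328.1 CPM. The LPS libraries hold both the lowest value and the second highest, so this group spans nearly the whole range. Reads of miR-181c-5p were 7.51 to 11.2 times those of miR-181d-5p, with a mean ratio of 9.85 ± 1.33 after saline, 8.86 ± 1.18 after LPS and 8.30 ± 0.602 after LPS + GAS. These ranges overlap between all groups. The level of miR-181d-5p had r = −0.75 with the TMM factors of the 9 libraries, the largest such value among the members, and the part of normalization in its spread was not tested.

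The order of the levels was the same in each group: miR-181a-5p, miR-181c-5p, miR-181b-5p, miR-181d-5p, miR-181a-1-3p and miR-181c-3p. Neighbours in this order were compared within libraries by an exact two-sided sign-flip permutation test on log2(CPM + 1), with 5 comparisons adjusted by Benjamini-Hochberg. The order came from mean levels in these same libraries, so the p-values give no separate support for it. Where ranges do not overlap, all libraries must differ the same way and the smallest p is fixed in advance. Only miR-181c-5p and miR-181b-5p had overlapping ranges. MiR-181c-5p was higher by 0.32 ± 0.27 on the log2 scale (SD, n = 9) and had more reads in 8 of 9 libraries (exact p = 0.00781, adjusted p = 0.00781). In LPS + GAS replicate 1 they differed by a single read, with 27053 against 27054. Each of the other 4 neighbours differed in 9 of 9 libraries (exact p = 0.00391, the smallest that 9 libraries allow, adjusted p = 0.00489), by 3.75, 2.83, 0.95 and 2.23 on the log2 scale from the top of the order down. The reads of different sequences were compared as counted, each strand being 22 to 24 bases long.

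**Figure D1:**
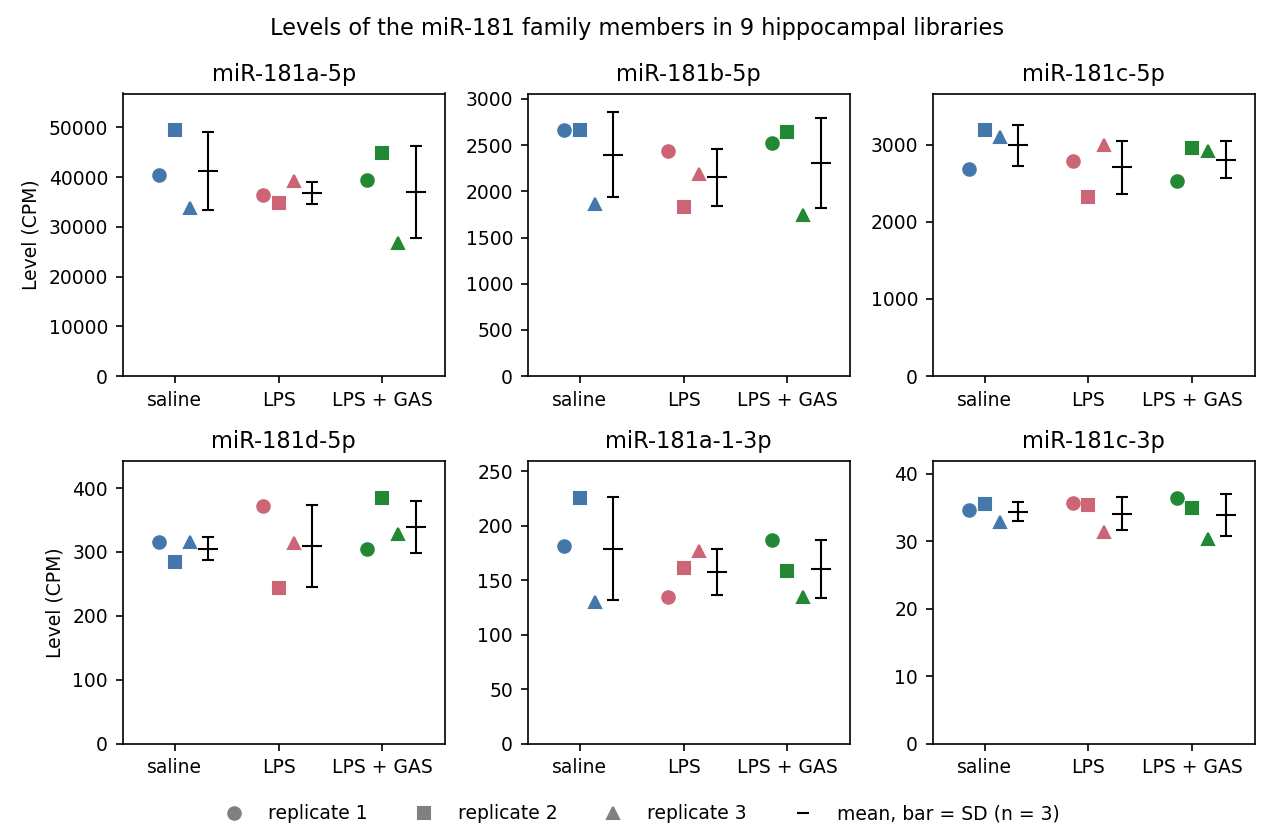
Level of each miR-181 member in CPM (vertical axis, from 0) in the saline, LPS and LPS + GAS libraries. Points are libraries, with circles, squares and triangles for replicates 1, 2 and 3, and bars are the mean ± SD of 3 libraries. The groups overlap for every member, and miR-181a-5p spans 26763 to 49418 CPM.

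The 3p strands, which are the less used products of the hairpins, were present at low levels. MiR-181a-1-3p had 181.5, 225.7 and 130.4 CPM with saline, 134.8, 160.9 and 177.2 CPM with LPS, and 187.3, 158.7 and 134.7 CPM with LPS + GAS. The lowest and the highest library were both saline libraries. MiR-181c-3p had 34.67, 35.55 and 32.85 CPM with saline, 35.63, 35.30 and 31.28 CPM with LPS, and 36.40, 34.89 and 30.34 CPM with LPS + GAS. It was nearly flat, and replicate 3 was the lowest library of each group. There were 65.7 to 96.3 reads of miR-181c-5p for each read of miR-181c-3p, and up to 259 reads of miR-181a-5p for each read of its 3p strands from both loci summed. The former ratio was 87.1 ± 8.65 with saline, 80.0 ± 15.1 with LPS and 83.5 ± 13.5 with LPS + GAS, and the latter 210 ± 17.7, 213 ± 21.2 and 209 ± 43.2. Neither differed between groups by more than its spread.

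The other 4 strands of the 6 precursors complete the family. MiR-181a-2-3p passed the minimum of reads, with 19.2 ± 2.86 CPM after saline, 16.3 ± 2.46 CPM after LPS and 16.9 ± 5.13 CPM after LPS + GAS. Reads of miR-181a-1-3p were 7.36 to 11.9 times those of miR-181a-2-3p, so by its 3p strands the chromosome 1 locus gave more reads than the chromosome 2 locus in all 9 libraries. The mean ratio was 9.21 ± 1.13 with saline, 9.89 ± 2.31 with LPS and 9.75 ± 1.43 with LPS + GAS. MiR-181d-3p had 1 to 8 reads per library, miR-181b-1-3p 0 to 3 and miR-181b-2-3p 0 or 1, and these 3 strands were not tested.

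LPS and LPS + GAS were compared with saline, and with each other, to ask whether the family changed with the endotoxin or with gastrodin. A miRNA was called where edgeR's quasi-likelihood test over the 628 miRNAs gave an adjusted p no higher than 0.05 together with a log2 fold change of 1 or more in either direction. Of the 6 members, 0 were called between LPS and saline, 0 between LPS + GAS and LPS, and 0 between LPS + GAS and saline. In the same order, 0%, 0% and 0.159% of all miRNAs tested were called. DESeq2's Wald test also called 0 members in each comparison. At an unadjusted p under 0.05 by edgeR there were 0 members, with the lowest unadjusted p at 0.384, 0.510 and 0.441, against 2.39%, 3.66% and 3.34% of all miRNAs tested. The groups overlapped for each of the 6 members in each comparison, while 3.82%, 8.6% and 7.32% of all miRNAs tested had groups that did not overlap. These comparisons share libraries, each group entering a pair of them.

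In LPS vs saline, 5 of the 6 members had a log2 fold change below 0 (57.5% of all miRNAs tested did), and their median was −0.15 beside −0.045 over all miRNAs. MiR-181a-5p had −0.16 (standard error 0.21, 95% confidence interval −0.64 to 0.31, adjusted p = 0.992 from edgeR). MiR-181b-5p had −0.15 (−0.64 to 0.34), and miR-181c-5p −0.14 (−0.50 to 0.21). The 3p strand miR-181a-1-3p had −0.18 (−0.71 to 0.34). MiR-181d-5p, at 0.023 (−0.41 to 0.45), and miR-181c-3p, at −0.012 (−0.39 to 0.36), were closest to 0. None of these differences exceeded the spread between libraries.

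In LPS + GAS vs LPS the members' log2 fold changes ran from −0.0080 for miR-181c-3p, the 1 of 6 below 0 (49.4% of all miRNAs tested were), to 0.13 for miR-181d-5p, with a median of 0.038 beside 0.0030 over all miRNAs. MiR-181a-5p had 0.0080 (95% confidence interval −0.47 to 0.48, adjusted p = 0.996 from edgeR), miR-181b-5p 0.098 (−0.39 to 0.59) and miR-181d-5p 0.13 (−0.30 to 0.56). In LPS + GAS vs saline, 5 of the 6 members were below 0 (55.9% of all miRNAs tested were), with a median of −0.073 beside −0.028 over all miRNAs. MiR-181d-5p had the value farthest above 0, 0.15 (−0.28 to 0.58), and miR-181a-1-3p the value farthest below, −0.16 (−0.68 to 0.36). MiR-181a-5p had −0.15 there (−0.63 to 0.32, adjusted p = 0.998 from edgeR). Over the 18 values, the 95% intervals ran from −0.71 to 0.59, so that a change of 1 on the log2 scale lay outside every interval. Without saline replicate 2, the library with the most miR-181a-5p, its value was 0.038 for LPS and 0.057 for LPS + GAS, each against saline. Without LPS + GAS replicate 3, the library with the least, the latter was 0.098.

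**Figure D2:**
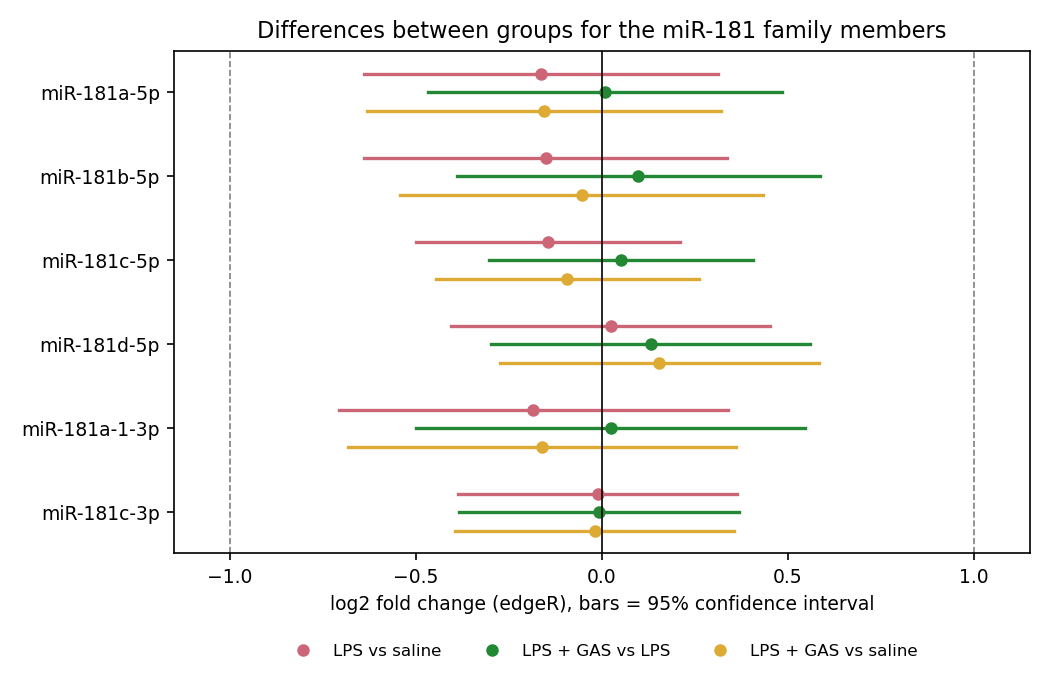
Log2 fold change (horizontal axis) of each member in the 3 comparisons between groups, from edgeR's fit of all 9 libraries. Points are estimates, bars are 95% confidence intervals, and dashed lines mark the threshold of 1 in either direction. Every interval includes 0, and all lie between −0.71 and 0.59.

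Counting error, as the coefficient of variation expected at a member's fewest reads, was 0.19% for miR-181a-5p and at most 2.78% for 5 of the 6 members, below their spread between libraries of a group. For miR-181c-3p it was 5.67%, about as large as the coefficients of variation between its libraries, which were 4.0% with saline, 7.11% with LPS and 9.31% with LPS + GAS. The SD of log2(CPM + 1) within groups was 0.28 for miR-181a-5p, 0.28 for miR-181b-5p and 0.29 for miR-181a-1-3p, close to the median of 0.26 over the 185 tested miRNAs with a mean of at least 100 CPM. It was 0.21 for miR-181d-5p, 0.15 for miR-181c-5p and 0.10 for miR-181c-3p. By reads, the 3 strands of the chromosome 8 cluster thus had the smaller values, which were not tested against the others. Of the 185 miRNAs, 89.7% had a larger SD than miR-181c-5p. With the deposited exp values, described below, miR-181a-5p had the smallest standard error of the members in LPS vs saline, 0.116. It was 0.129 for miR-181c-5p, 0.174 for miR-181c-3p, 0.188 for miR-181d-5p, 0.194 for miR-181b-5p and 0.24 for miR-181a-1-3p.

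Correlations between members over the 9 libraries were computed for all 15 pairs on log2(CPM + 1), with exact two-sided permutation tests and Benjamini-Hochberg adjustment over the 15. MiR-181a-5p and miR-181b-5p, made from the same clusters, rose and fell together, with Pearson's r = 0.85 (exact p = 0.000386, adjusted p = 0.00579) and Spearman's rho = 0.92 (exact p = 0.00131, adjusted p = 0.0197). Both were low in LPS + GAS replicate 3 and saline replicate 3, and high in saline replicate 2 and LPS + GAS replicate 2. Without the 2 libraries farthest from the median of miR-181a-5p, r was 0.82, and with the group means subtracted it was 0.86. This was 1 of 15 pairs that passed. These tests treat the 9 libraries as exchangeable, while same-numbered saline and LPS + GAS libraries deviated together. With the mean of each replicate number removed, r was 0.90 for this pair (exact p = 0.00463 and adjusted p = 0.0694 over the 216 permutations within numbers). That exact p is the smallest these permutations can give, and a pair that reached it alone could not pass after adjustment over the 15. Without LPS + GAS replicate 3, r was 0.79 with an adjusted p of 0.189 by the same exact permutation test, and 0 pairs passed. Among the 627 other miRNAs tested, miR-181b-5p had the 2nd highest r with miR-181a-5p, while miR-181a-5p had the 5th highest with miR-181b-5p.

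MiR-181a-1-3p, cut from one of the hairpins of miR-181a-5p, had r = 0.77 with it (exact p = 0.0144, adjusted p = 0.108) and rho = 0.77 (exact p = 0.0214, adjusted p = 0.160), which did not pass. Without the 2 libraries farthest from the median of miR-181a-5p, its r was 0.56, and without LPS + GAS replicate 2 it was 0.85, with an adjusted p of 0.0487 by the same exact permutation test. On chromosome 8 the values were lower. The cluster partners miR-181c-5p and miR-181d-5p had r = 0.46 (exact p = 0.217, adjusted p = 0.477) and rho = 0.20 (exact p = 0.613, adjusted p = 0.836). Without the 2 libraries farthest from the median of miR-181c-5p, r turned to −0.44, so the value rests on those libraries. The arms of one hairpin, miR-181c-5p and miR-181c-3p, had r = −0.42 (exact p = 0.255, adjusted p = 0.477) and rho = −0.35 (exact p = 0.359, adjusted p = 0.672), with r = −0.13 without the 2 farthest libraries. MiR-181a-5p and miR-181c-5p, which share a seed but no cluster, had r = 0.20 (exact p = 0.601, adjusted p = 0.819) and rho = 0.20 (exact p = 0.613, adjusted p = 0.836), with r = 0.17 without the 2 farthest. The weaker relations changed when the replicate numbers' means were removed. MiR-181a-5p with miR-181c-5p then had r = 0.66 (exact permutation p = 0.116, adjusted p = 0.556). MiR-181b-5p with miR-181c-5p, at r = 0.13 before, had 0.80 (exact permutation p = 0.148, adjusted p = 0.556). MiR-181c-5p with miR-181d-5p had 0.60 (exact permutation p = 0.528, adjusted p = 0.943), and the arms of miR-181c 0.07 (exact permutation p = 0.741, adjusted p = 0.943). For miR-181a-5p with miR-181a-1-3p, r was 0.68 (exact permutation p = 0.111, adjusted p = 0.556).

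As background to these pairs, miRNAs tested that have a single RefSeq locus were used, which leaves out miR-181a-5p and miR-181b-5p. Over 147 pairs of arms of one precursor the median r was 0.37. Over 958 pairs from different precursors within 10 kb on one strand it was 0.31. Over all 196878 pairs of miRNAs tested, these strands included, the median r was 0.00. An r at least as high as that of miR-181a-5p with miR-181b-5p was found in 8.16%, 4.70% and 0.574% of these pairs, respectively. The background pairs were not matched to the members by level, and the part of counting error in these shares was not tested.

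**Figure D3:**
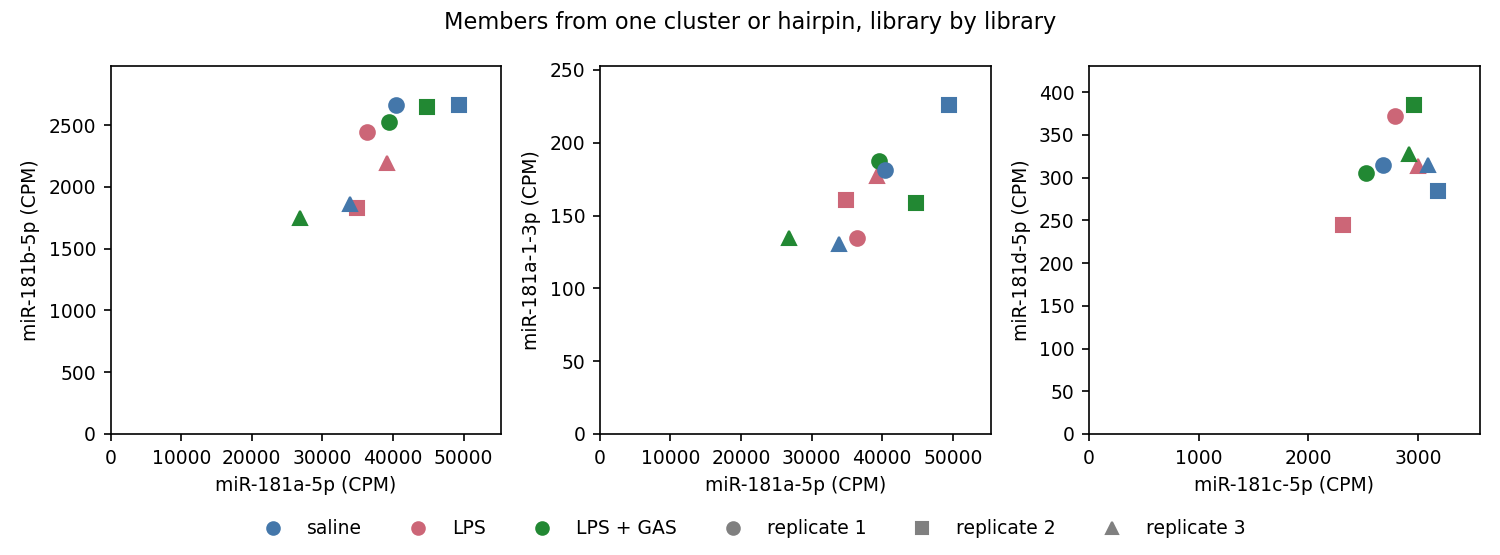
Levels in CPM of miR-181a-5p against miR-181b-5p, of miR-181a-5p against miR-181a-1-3p, and of miR-181c-5p against miR-181d-5p, with all axes from 0. Each point is a library, coloured by group and shaped by replicate number. The pair from the shared clusters (r = 0.85) follows a line more closely than the chromosome 8 partners (r = 0.46).

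**Figure D4:**
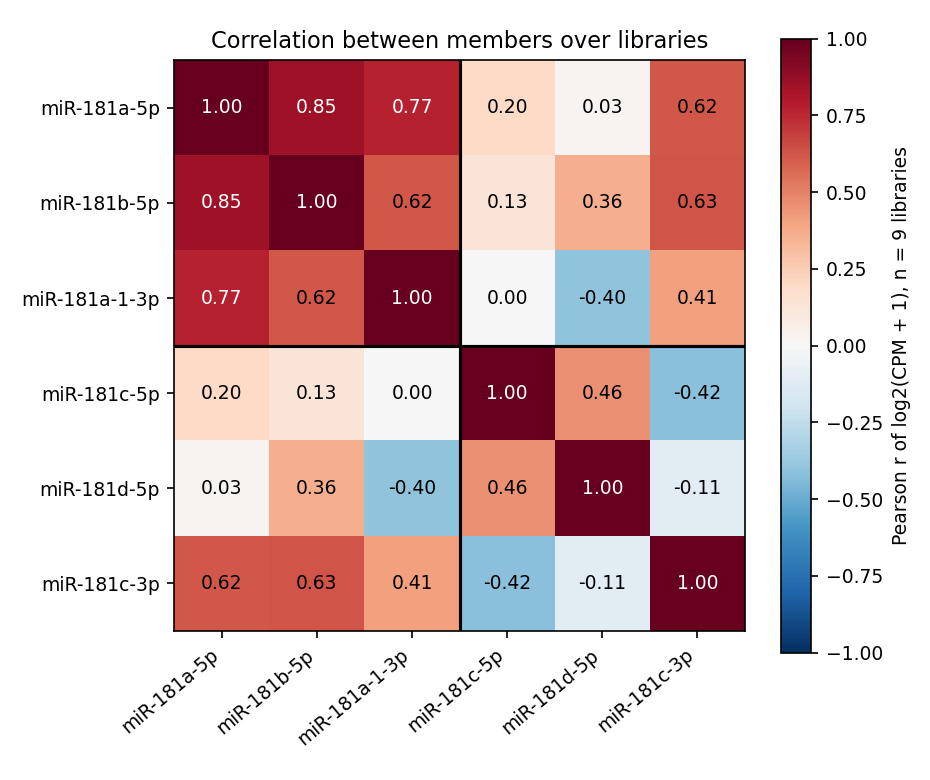
Pearson's r of log2(CPM + 1) over 9 libraries for each pair of members, with those of the miR-181a and miR-181b clusters before the black lines and those of the chromosome 8 cluster after them. The highest value off the diagonal is 0.85 and the lowest −0.42.

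The relative amounts of the guide strands moved with this variation. MiR-181a-5p had 10.9 reads for each read of miR-181c-5p in saline replicate 3 and 9.16 in LPS + GAS replicate 3, against 13.0 to 15.6 in the other 7 libraries. In both of these libraries miR-181a-5p was low and miR-181c-5p was not. The group means were 13.8 ± 2.52, 13.7 ± 1.14 and 13.3 ± 3.60, which overlap. By reads, the ratio of miR-181a-5p to miR-181b-5p was steadier, between 14.9 and 19.1 in the 9 libraries. Its coefficient of variation was 9.65%, against 16.8% for the ratio to miR-181c-5p. By the deposited exp values, described below, these were 9.35% and 9.85%, so the contrast was seen by reads only.

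Outside the family, the miRNAs most like miR-181a-5p over the 9 libraries were miR-22-5p (r = 0.86), miR-671-3p (0.85), miR-133a-3p (0.83), miR-135b-5p (0.82) and miR-429-3p (0.81). Those most like miR-181c-5p were miR-206-3p (0.83), miR-379-3p (0.78), miR-29a-3p (0.77), miR-12194-3p (0.76) and miR-872-5p (0.76). Their mean levels differed widely, from 2.9 CPM for miR-12194-3p, 3.95 CPM for miR-671-3p and 10.3 CPM for miR-133a-3p up to 4138 CPM for miR-29a-3p. The 2 lists share no miRNA. They are the 5 highest of 627 values each, on libraries that share a normalization, and are given as a description with no test.

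Markers of the tissue were present. The forebrain neuron list, led by miR-124-3p, summed to 86533 to 127082 CPM per library. The hindbrain and spinal cord list summed to 13 to 41 CPM, with miR-196a-5p under 10 reads throughout. Whole hippocampus was sequenced, so fewer cells of a type and less RNA per cell cannot be told apart. The summed choroid plexus and ependyma list had 9389 to 29616 CPM with saline, 9478 to 22347 CPM with LPS and 12063 to 57298 CPM with LPS + GAS, and over the 9 libraries had r = −0.24 with miR-181a-5p and 0.22 with miR-181b-5p. The oligodendrocyte list (all 3 of 3 present) had 2858 to 4818, 1443 to 3648 and 2505 to 4639 CPM. Its r was 0.63 with miR-181a-5p, 0.81 with miR-181b-5p, 0.45 with miR-181c-5p, 0.37 with miR-181d-5p, 0.58 with miR-181a-1-3p and 0.21 with miR-181c-3p, and its part in the correlation of miR-181a-5p with miR-181b-5p was not tested. In the same order of groups, red blood cell markers, led by miR-451a, had 2024 to 4267, 2149 to 3241 and 4541 to 6174 CPM, leukocyte markers 4938 to 5331, 2573 to 6234 and 3688 to 5609 CPM, almost all of it miR-150-5p, and endothelial markers 14661 to 17139, 13326 to 16789 and 15460 to 16057 CPM. Their r with miR-181a-5p was 0.09, 0.48 and 0.08, and that of the leukocyte list with miR-181b-5p was 0.65.

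The deposited table holds another whole number beside each read count, named exp, and no source used here says how it was made. It was never above the read count, and its share of the reads fell as reads rose. For miR-181c-3p it was 99.4% to 100.0% of the reads, for miR-181a-1-3p 98.5% to 99.3% and for miR-181d-5p 97.2% to 98.1%. It was 84.8% to 89.1% for miR-181b-5p and 82.6% to 86.5% for miR-181c-5p. For miR-181a-5p it was 25.3% to 38.4%, lowest in saline replicate 2, the library with the most reads of this strand (558853), and highest in LPS + GAS replicate 3, with the fewest (277852). Over all libraries the reads of miR-181a-5p spanned 2.01-fold and its exp values 1.32-fold. By exp values there were 5.54 to 6.91 of miR-181a-5p for each of miR-181b-5p, against 14.9 to 19.1 by reads, and miR-181a-5p made up 70.4% to 73.9% of the guide strands. The ratio of 5p to 3p strands by exp values was 56.8 to 81.2 for miR-181c and 51.2 to 80.0 for miR-181a. The higher ratio of miR-181a was thus seen by reads only. Other miRNAs of like abundance had like shares. The 4 other miRNAs within 1.5-fold of the mean reads of miR-181a-5p had exp values at 28.5% to 35.9% of reads, and miR-181a-5p had 31.2%.

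**Figure D5:**
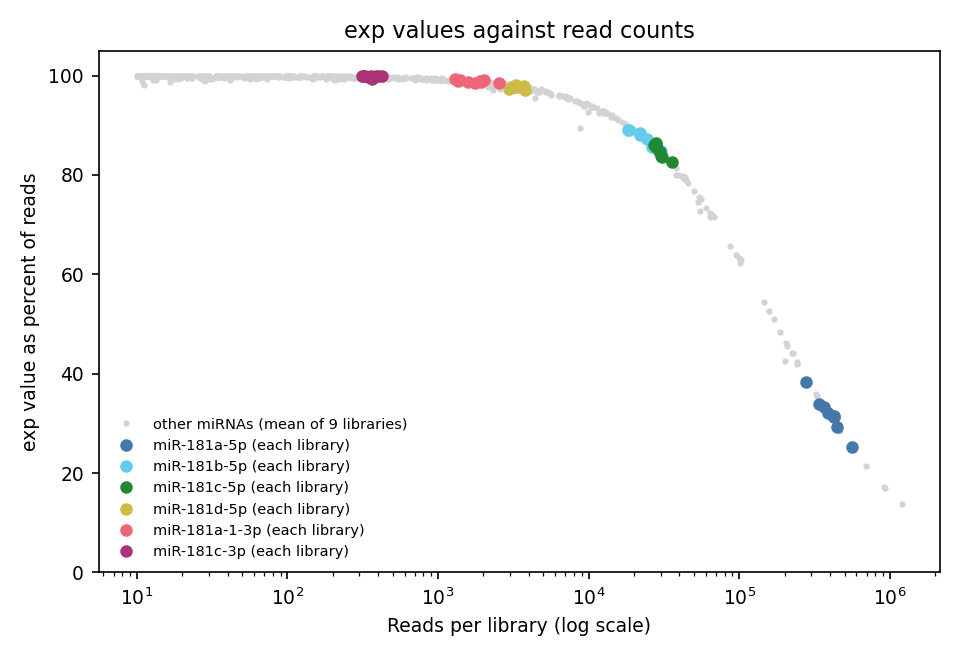
The exp value as a percent of reads (vertical axis) against reads per library (horizontal axis, log scale), for each member in each library and, in grey, for other miRNAs with a mean of at least 10 reads. The members lie on the same falling curve as the other miRNAs, with miR-181a-5p between 25.3% and 38.4%.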

How the data were processed

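The authors deposited read counts per mature miRNA, not normalized, from BGISEQ-500 small RNA libraries, with GRCm38.p6 as the genome build in the submitters' processing notes. For the aligner, counter and miRBase release: not given in the sources used here. The deposited exp values are a score of unknown making, used only as an alternative. The deposited sequence lengths are other annotation. Columns with the authors' averages, log2 fold changes, p-values and q-values were not used. All per-library columns matched a sample title, leaving 0 unmapped.

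The tests used edgeR 4.0.16 under R 4.3.3. The 628 of 1448 miRNAs that reached 10 reads in 3 or more libraries were fitted with TMM normalization and a mean per group over all 9 libraries (glmQLFit, glmQLFTest), with Benjamini-Hochberg adjustment over the 628. Standard errors are the log2 fold change over the square root of F, and 95% intervals use the fit's degrees of freedom. On simulated counts for LPS vs saline (616 miRNAs, 194 changed by 2 on the log2 scale), edgeR recovered 190 and called 3 of 422 unchanged. DESeq2 1.42.0 recovered 189 and called 5. Changes smaller than 2 were not simulated, so this recovery does not give the power at the threshold of 1. Alternatives were DESeq2's size factors and Wald test, no filter, exp values, the replicate number as a block, no minimum fold change and each library left out. Same-numbered libraries deviated together in LPS + GAS vs saline (correlations 0.296 to 0.370 over 3 pairs, from the data alone). In LPS vs saline the correlations were mixed, at 0.317, 0.209 and −0.284 for replicates 1, 2 and 3. In LPS + GAS vs LPS they were −0.109, 0.0466 and −0.274. With 10119758 to 11457656 reads per library, counting error was at most 2.78% for 5 members and 5.67% for miR-181c-3p.

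The members, the lists and the tests were chosen with earlier results of these data known. The miRNAs named are the members, the other strands of their precursors, and the 5 most like miR-181a-5p and miR-181c-5p by Pearson's r of log2(CPM + 1), with a pseudocount of 1. Marker lists were forebrain neurons, oligodendrocytes, choroid plexus and ependyma, red blood cells, leukocytes, endothelium, and hindbrain and spinal cord. All 10 miR-181 strands matched RefSeq, and host genes are from GENCODE release M21 on GRCm38.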

Additional observations from a re-analysis of the deposited data

How the results depend on the processing

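The 18 fold changes of the members stayed uncalled in all 252 values from the alternatives, whose log2 fold changes ran from −0.37 to 0.29, and whose adjusted p (edgeR or DESeq2) from 0.845 to 1.00. Their direction held in 205 of these and turned in 47, and the cause was not tested. In LPS vs saline, miR-181c-3p turned to 0.042 with DESeq2's size factors, 0.029 with no filter, 0.042 by DESeq2's Wald test and 0.039 with exp values, and miR-181a-5p to 0.0074 with exp values. In LPS + GAS vs LPS, miR-181c-3p turned to 0.0045 with no filter and miR-181a-5p to −0.0046 with exp values. With the replicate number as a block, miR-181a-5p had −0.031 there, and the block changed no call of a member and no count of called miRNAs. In LPS + GAS vs saline, miR-181b-5p turned to 0.0058 by DESeq2's Wald test as with its size factors, miR-181c-3p to 0.0389 with its size factors, 0.0334 with no filter, 0.0385 by its Wald test and 0.0194 with exp values, and miR-181a-5p to 0.0027 with exp values.

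With each library left out in turn, some log2 fold changes kept their direction. In LPS vs saline these were miR-181b-5p (−0.30 to −0.020) and miR-181c-5p (−0.22 to −0.016). MiR-181d-5p kept it in LPS + GAS vs LPS (0.0054 to 0.28) and in LPS + GAS vs saline (0.056 to 0.28). The other log2 fold changes turned in some of these fits and ranged as follows. In LPS vs saline they were −0.29 to 0.038 for miR-181a-5p, −0.37 to 0.068 for miR-181a-1-3p, −0.045 to 0.064 for miR-181c-3p and −0.13 to 0.20 for miR-181d-5p. In LPS + GAS vs LPS they were −0.15 to 0.22 for miR-181a-5p, −0.011 to 0.29 for miR-181b-5p, −0.031 to 0.13 for miR-181c-5p, −0.093 to 0.15 for miR-181a-1-3p and −0.065 to 0.085 for miR-181c-3p. In LPS + GAS vs saline they were −0.31 to 0.098 for miR-181a-5p, −0.21 to 0.17 for miR-181b-5p, −0.13 to 0.031 for miR-181c-5p, −0.35 to 0.094 for miR-181a-1-3p and −0.052 to 0.12 for miR-181c-3p.

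Over all miRNAs, the 0 calls in LPS vs saline became 2 with no filter and 1 by DESeq2's Wald test. Leaving out single libraries gave 0 to 1 calls in LPS vs saline (1 without LPS replicate 2 and 1 without LPS + GAS replicate 3) and 0 to 1 in LPS + GAS vs LPS (1 without LPS replicate 2). The 1 correlated pair of 15 stayed 1 with DESeq2's size factors, exp values and group means subtracted, and ranged from 0 to 2 with single libraries left out. With the replicate numbers' means removed as a block, chosen after seeing the data, miR-181a-5p and miR-181b-5p had r = 0.90 with an adjusted p of 0.0694 by exact permutation. This is the smallest adjusted p for a pair that alone reaches the lowest exact p. Depth limited miR-181c-3p, whose counting error of 5.67% was near its spread between libraries.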
